A study of Mus musculus with 27 samples.

Results

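The presynaptic terminal stores transmitter in vesicles and releases it when calcium enters. Vesicles are filled by transporters in their membrane, docked and primed at the active zone, and fused with the plasma membrane by SNARE proteins under the control of complexins and synaptotagmins. Most of the proteins involved have close relatives that serve secretion in other cells, and the neuronal forms are widely used as signs of neuronal maturation. The genes described here are 37 such genes, chosen by name with earlier results of these data known, and all 37 were found among the 54532 genes of the table of expression values. They encode 6 synaptotagmins, 8 proteins of the vesicle membrane and synapsins, 5 SNAREs and complexins, 4 Rab3 proteins and Rabphilin, 7 proteins of the active zone and of priming, 2 neurexins, and 5 transporters and enzymes that set the transmitter.

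The 27 RNA-seq libraries came from mouse embryonic fibroblasts (MEFs) that were turned into induced neurons (iNs) by lentiviruses carrying doxycycline-inducible genes of reprogramming factors, *Brn2* (*Pou3f2*) and *Myt1l* among them, together with the transactivator M2rtTA. Cells that were WT, *Per1*-/-, or *Per2*-/- were each sampled on days 0, 2, and 4 in 3 biological replicates. According to the methods, the embryos were taken on embryonic day 13.5 without head and heart, cells of 4 embryos were pooled for a dish, the sex of the embryos was not determined, and day 0 is the time before doxycycline was added, whereas the submitters' design text counts the days after transduction. The medium with serum was replaced by serum-free N3 medium when doxycycline was added. In comparisons with day 0, induction of the factors and the change of medium therefore cannot be told apart. *Per1* and *Per2* encode repressors of the circadian clock, and the study asked how their loss affects reprogramming. All libraries, day 0 included, carry the label of induced neurons and of transduction with these factors.

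Expression is given as FPKM, fragments per kilobase of gene length scaled by library size, so levels of different genes can be set side by side per length. Libraries held 15815013 to 24264097 fragments on genes. *Per1* transcript was 5.78, 4.80, and 5.16 FPKM on average in WT cells on days 0, 2, and 4 and 4.11, 4.21, and 4.45 in *Per1*-/- cells. The libraries labelled *Per2*-/- held more *Per2* transcript than WT, 1.93 against 0.894 FPKM on day 0 and 2.82 against 1.73 on day 4. This goes against a loss of the transcript, so they are called by their label, and *Per1* transcript also remained in *Per1*-/- cells. By western blotting, the paper found PER1 protein lost in *Per1*-/- MEFs and PER2 protein lost in *Per2*-/- MEFs, which RNA levels do not measure. Whether the deleted part of either gene lies in the counted exons was not checked. The labelled cell type was only partly borne out: 12 fibroblast markers summed to 4607 to 6290 FPKM in every library of day 4 and 15 neuronal markers to 142 to 243. In such mixed cultures, fewer neuronal cells and less RNA per neuronal cell cannot be told apart.

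Of the 37 genes, 27 (73.0%) were higher on day 4 than on day 0 in each of the 3 genotypes, 1 (*Rab3b*) was lower in each, and 9 were called in none. Among them *Syt1*, the calcium sensor of fast release, rose from a mean of 0.131 to 7.99 FPKM in WT cells, *Snap25*, a SNARE of the plasma membrane, from 0.00474 to 2.17, and *Nrxn2*, a presynaptic adhesion protein, from 0.0507 to 3.46. The 9 without a call were *Syt2*, *Syt5*, *Stx1a*, *Cplx2*, *Rph3a*, *Slc17a6*, *Slc32a1*, *Gad1*, and *Gad2*. These counts are from a limma fit of log2(FPKM + 0.1) over the 36800 genes above 0 in any library, in which a gene was called if its adjusted p did not exceed 0.05 and its log2 fold change reached 0.58 in size. In that fit, 12.7%, 13.0%, and 13.1% of all genes were called higher on day 4 than on day 0 in WT, *Per1*-/-, and labelled *Per2*-/- cells, and 9.3%, 8.97%, and 8.36% lower. The median log2 fold change of the 37 genes was 1.78, 1.57, and 1.76, and that of all genes 0, 0, and 0.0507. Since the 37 genes were chosen with earlier results of these data known, these shares describe the list and do not test it. Because 0.1 FPKM was added before taking logs, fold changes of genes near 0 are understated.

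**Figure D1:**
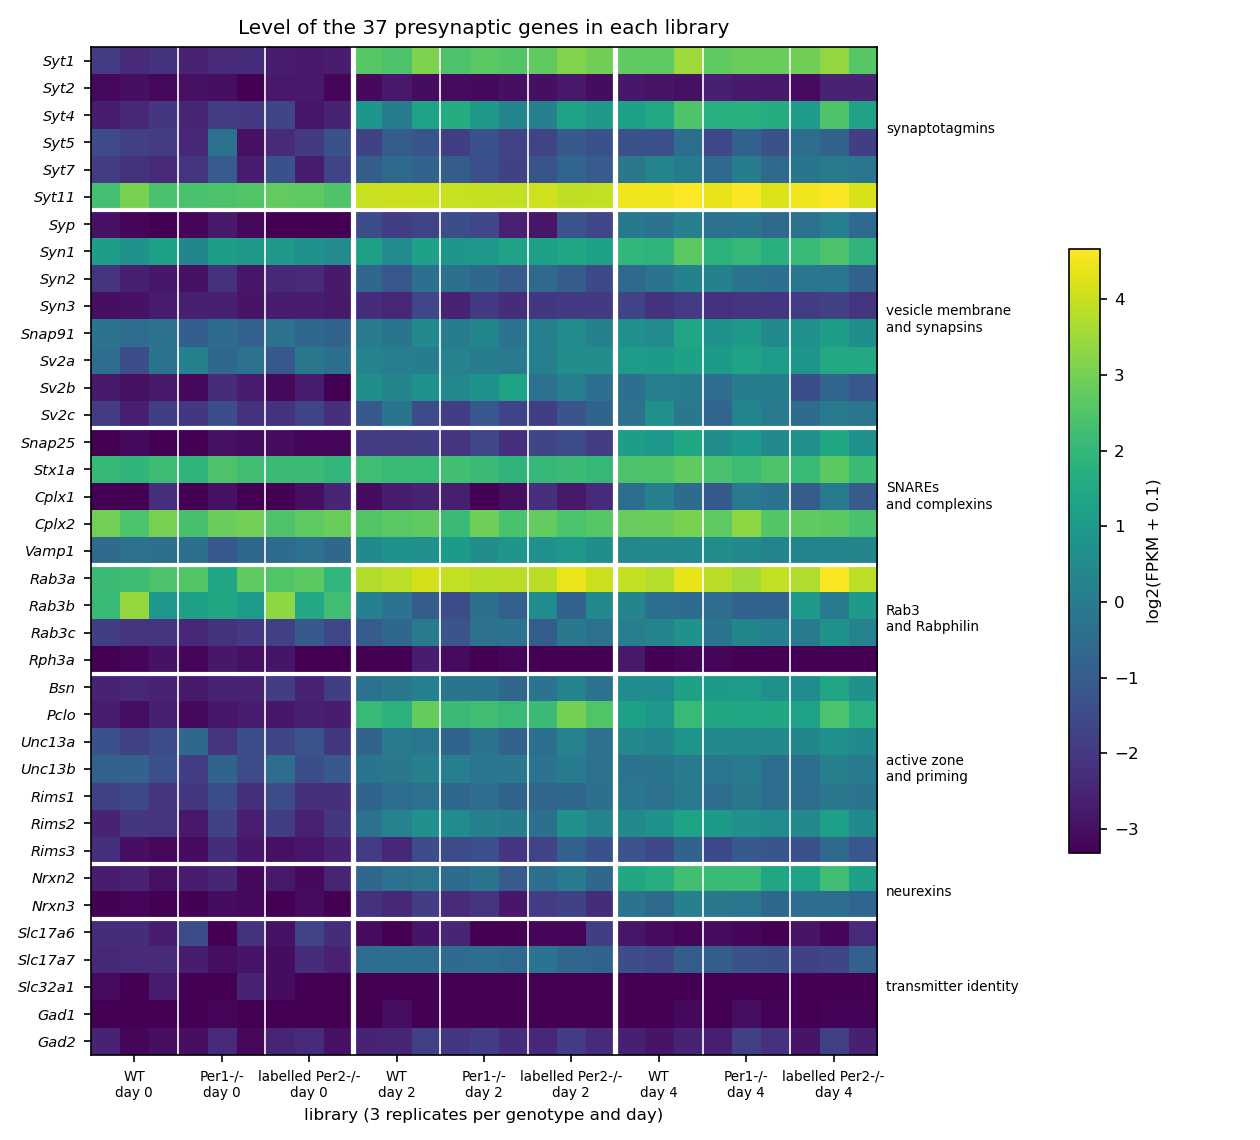
Level of each of the 37 genes (rows, grouped by role) in each of the 27 libraries (columns, 3 replicates per genotype and day) as log2(FPKM + 0.1), from dark for low to yellow for high. Most rows brighten from day 0 to day 2, *Snap25*, *Cplx1*, *Syp*, *Nrxn2*, and *Nrxn3* brighten again from day 2 to day 4, and *Slc32a1* and *Gad1* stay dark in every library.

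The rise came in an earlier and a later step. From day 0 to day 2, 23, 20, and 23 of the 37 genes were called higher in WT, *Per1*-/-, and labelled *Per2*-/- cells, beside 10.6%, 10.5%, and 9.66% of all genes, and 1 (*Rab3b*) lower in each, beside 8.7%, 8.16%, and 7.45%. Of these, 18 rose in all 3 genotypes. From day 2 to day 4, 6 of the 37 genes were called higher in each genotype, beside 0.685%, 0.747%, and 1.24% of all genes, and 0 were called lower, beside 0.405%, 0.332%, and 0.576%. *Snap25*, *Cplx1*, *Syp*, *Nrxn2*, and *Nrxn3* were the 5 that rose in the later step in all 3 genotypes, and 4 of them, all but *Cplx1*, had risen in the earlier step too. The planned fit took the genes whose mean over all libraries reached 0.5 FPKM, and 20 of the 37 were among them. In that fit 15, 15, and 16 were called higher from day 0 to day 2, beside 20.8%, 20.8%, and 18.7% of 14932 genes, and 1 lower, beside 19.7%, 18.8%, and 16.8%. From day 2 to day 4, 3, 4, and 4 were called higher there, beside 1.62%, 1.38%, and 2.32%, and 0 lower, beside 1.59%, 1.06%, and 1.74%. Between days 2 and 4 same-numbered libraries were taken as pairs in WT and *Per1*-/- cells from correlations in these data, not from the labels. The block was the number within each genotype over all 3 days. It thus also tied day 0 libraries, whose correlations with later days ran from -0.0172 to 0.0615 in WT cells. With this block 6 and 7 were called higher from day 2 to day 4 in WT and *Per1*-/- cells, beside 3.08% and 2.75%. Called lower were 1 (*Pclo*) and 2 (*Pclo* and *Sv2b*), beside 2.47% and 2.14%. Called higher with the block and not without it were *Sv2a*, *Snap91*, and *Rab3c* in WT and *Syn1*, *Snap91*, and *Unc13a* in *Per1*-/- cells. Over days 0 to 4, the planned fit called 17 of the 20 higher in each genotype, beside 22.9%, 22.6%, and 21.6%, and 1 lower, beside 20.9%, 20.4%, and 18.8%. Genes that passed this mean may have done so through the days on which they were high, so the counts over all 37 are the ones to read. With voom weights on the recovered fragments, and 35 of the 37 genes at 27 or more fragments over the libraries (an alternative chosen after seeing the data), 25, 22, and 24 were called higher by day 2, beside 18.7%, 17.8%, and 16.4%. The later step then gave 11, 9, and 8 higher, beside 2.05%, 1.98%, and 2.63%, and 1 lower in each genotype, beside 1.11%, 0.674%, and 1.25%. The lower gene was *Slc17a7* in WT and labelled *Per2*-/- cells and *Sv2b* in *Per1*-/- cells. Fold changes are from the planned fit for these 20 genes and from the fit without a minimum for the other 17. Each is a log2 fold change ± SE with 3 libraries per group. The SE rests on a spread per gene that the 9 groups share, so it is the same in each genotype.

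**Figure D2:**
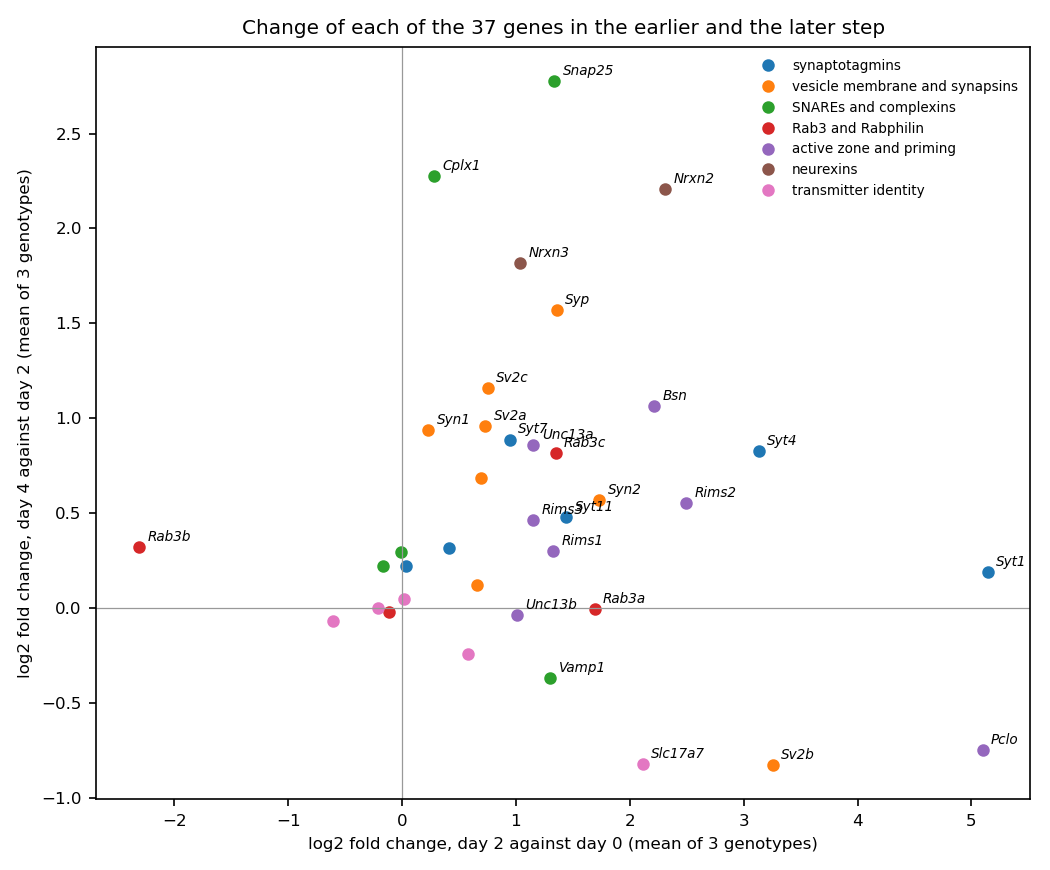
Log2 fold change of each of the 37 genes from day 0 to day 2 (horizontal axis) and from day 2 to day 4 (vertical axis), each the mean of 3 genotypes, coloured by role. *Syt1* and *Pclo* lie far right near or below 0 on the vertical axis, with changes of 5.14 and 5.10 in the earlier step, whereas *Snap25* and *Cplx1* lie high on the vertical axis with 2.78 and 2.27 in the later step.

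Synaptotagmins are vesicle proteins with a pair of C2 domains. *Syt1*, the calcium sensor for fast synchronous release, had the largest mean change from day 0 to day 4 among the 20 tested members. On day 0, the level of *Syt1* was 0.170, 0.0985, and 0.126 FPKM in the WT libraries, 0.0682, 0.0934, and 0.106 in the *Per1*-/- libraries, and 0.0545, 0.0445, and 0.0557 in those labelled *Per2*-/-. WT libraries held 5.96, 5.27, and 8.54 FPKM of *Syt1* on day 2, *Per1*-/- libraries 5.27, 6.10, and 5.63, and libraries labelled *Per2*-/- 6.49, 8.78, and 7.54. The day 4 values of *Syt1* were 6.48, 6.37, and 11.1 FPKM in WT cells, 6.47, 7.10, and 7.01 in *Per1*-/- cells, and 7.61, 10.3, and 5.99 under the *Per2*-/- label. Every day 2 library was above every day 0 library, whereas days 2 and 4 overlapped in WT cells and under the *Per2*-/- label. The log2 fold change from day 0 to day 2 was 4.83 ± 0.21 in WT, 4.93 ± 0.21 in *Per1*-/-, and 5.66 ± 0.21 under the *Per2*-/- label (adjusted p = 4.45e-13, 5.43e-13, and 4.14e-14). From day 2 to day 4 it was 0.26 ± 0.21 in WT, 0.27 ± 0.21 in *Per1*-/-, and 0.04 ± 0.21 under the *Per2*-/- label (adjusted p = 0.550, 0.518, and 0.934), which did not pass the test. *Syt4* is an atypical synaptotagmin found on vesicles outside the main synaptic vesicle pool. By day 2 its mean FPKM had reached 47.44%, 62.5%, and 52.45% of its rise to day 4 in WT, *Per1*-/-, and labelled *Per2*-/- cells. For *Syt1* these shares were 82.15%, 82.43%, and 95.28%. The step of *Syt4* from day 2 to day 4 was not called in any genotype. *Syt4* stood on day 0 at 0.0539, 0.0867, and 0.141 FPKM in WT, 0.0795, 0.166, and 0.156 in *Per1*-/-, and 0.218, 0.0408, and 0.0744 in the libraries labelled *Per2*-/-. For *Syt4* on day 2, the replicates gave 1.74, 0.949, and 2.39 FPKM in WT, 2.98, 1.91, and 1.15 in *Per1*-/-, and 1.02, 2.34, and 1.91 under the *Per2*-/- label. On day 4, the level of *Syt4* was 2.24, 2.75, and 5.40 FPKM in the WT libraries, 3.10, 3.30, and 3.02 in the *Per1*-/- libraries, and 2.02, 5.38, and 2.35 in those labelled *Per2*-/-. By day 2 the log2 fold change was 3.15 ± 0.43 in WT, 3.10 ± 0.43 in *Per1*-/-, and 3.15 ± 0.43 under the *Per2*-/- label (adjusted p = 2.48e-06, 3.30e-06, and 2.94e-06). *Syt11*, its close relative, had the highest level of the 37 genes on day 4 and was already expressed on day 0, with 6.06 ± 1.98 FPKM in WT on day 0, 16.4 ± 0.312 on day 2, and 23.4 ± 1.65 on day 4 (SD, n = 3). It rose by 1.46 ± 0.15 in WT, 1.53 ± 0.15 in *Per1*-/-, and 1.33 ± 0.15 under the *Per2*-/- label (adjusted p = 5.29e-08, 3.44e-08, and 2.33e-07) from day 0 to day 2. *Syt7*, a sensor of slow release, reached 0.932 ± 0.152 FPKM in WT on day 4 from 0.130 ± 0.0352 on day 0 and was higher on day 4 than on day 0 in all 3 genotypes. *Syt2* stayed at or below 0.0738 FPKM in every library, and *Syt5* at or below 0.682, with no call on any day.

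SNARE proteins pull the vesicle and the plasma membrane together, and complexins hold the assembled complex ready. *Snap25* was close to absent on day 0, with 0 to 3 fragments in each library. WT libraries held 0, 0.0142, and 0 FPKM of *Snap25* on day 0, *Per1*-/- libraries 0, 0.0287, and 0.0199, and libraries labelled *Per2*-/- 0.0167, 0.00781, and 0.00855. The day 2 values of *Snap25* were 0.171, 0.170, and 0.182 FPKM in WT cells, 0.133, 0.227, and 0.111 in *Per1*-/- cells, and 0.216, 0.257, and 0.173 under the *Per2*-/- label. *Snap25* stood on day 4 at 2.07, 1.81, and 2.65 FPKM in WT, 1.41, 1.81, and 1.30 in *Per1*-/-, and 1.51, 2.65, and 1.56 in the libraries labelled *Per2*-/-. The libraries of the 3 days did not overlap in any genotype, and the larger difference in FPKM was the later one. With day 0 close to 0, the 0.1 FPKM added before taking logs understates mainly the earlier fold change, so the log2 fold changes do not rank the steps. From day 0 to day 2 the log2 fold change was 1.39 ± 0.28 in WT, 1.13 ± 0.28 in *Per1*-/-, and 1.50 ± 0.28 under the *Per2*-/- label (adjusted p = 2.35e-04, 0.00174, and 1.27e-04), and from day 2 to day 4 it was 3.04 ± 0.28 in WT, 2.66 ± 0.28 in *Per1*-/-, and 2.63 ± 0.28 under the *Per2*-/- label (adjusted p = 4.26e-06, 2.15e-05, and 3.38e-05). With a pseudocount of 1 FPKM the earlier call was lost in all 3 genotypes (0.23, 0.19, and 0.26). By day 2, 7.81%, 9.44%, and 10.8% of the difference in mean FPKM between days 0 and 4 had been reached in WT, *Per1*-/-, and labelled *Per2*-/- cells. *Cplx1*, the main complexin of inhibitory and long-range projecting neurons, was named here after its values were seen. For *Cplx1* on day 0, the replicates gave 0, 0, and 0.114 FPKM in WT, 0, 0.0296, and 0 in *Per1*-/-, and 0, 0.0242, and 0.0796 under the *Per2*-/- label. On day 2, the level of *Cplx1* was 0.0176, 0.0529, and 0.0705 FPKM in the WT libraries, 0.0588, 0, and 0.0230 in the *Per1*-/- libraries, and 0.115, 0.0469, and 0.0933 in those labelled *Per2*-/-. WT libraries held 0.636, 1.01, and 0.611 FPKM of *Cplx1* on day 4, *Per1*-/- libraries 0.377, 0.868, and 0.722, and libraries labelled *Per2*-/- 0.410, 0.872, and 0.387. Day 4 stood clear of both earlier days in each genotype, with a log2 fold change from day 2 of 2.52 ± 0.36 in WT, 2.53 ± 0.36 in *Per1*-/-, and 1.77 ± 0.36 under the *Per2*-/- label (adjusted p = 8.26e-04, 8.22e-04, and 0.0124). From day 0 to day 2, *Cplx1* was not called, with 0.17 ± 0.36 in WT, 0.20 ± 0.36 in *Per1*-/-, and 0.48 ± 0.36 under the *Per2*-/- label (adjusted p = 0.924, 0.868, and 0.421). In contrast, *Stx1a*, the syntaxin of the plasma membrane, and *Cplx2* were already at 4.21 and 6.61 FPKM on average over genotypes on day 0 and at 5.19 and 6.90 on day 4. Neither was called in any genotype at any step, although *Stx1a* was called higher on day 4 than on day 0 in WT cells after rescaling to TPM. *Vamp1*, a synaptobrevin of the vesicle, was highest on day 2, with 0.645 ± 0.0631, 1.49 ± 0.156, and 1.22 ± 0.0170 FPKM in WT on days 0, 2, and 4 (SD, n = 3), and its rise to day 2 was 1.09 ± 0.17 in WT, 1.54 ± 0.17 in *Per1*-/-, and 1.28 ± 0.17 under the *Per2*-/- label (adjusted p = 1.38e-05, 1.88e-07, and 2.34e-06).

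**Figure D3:**
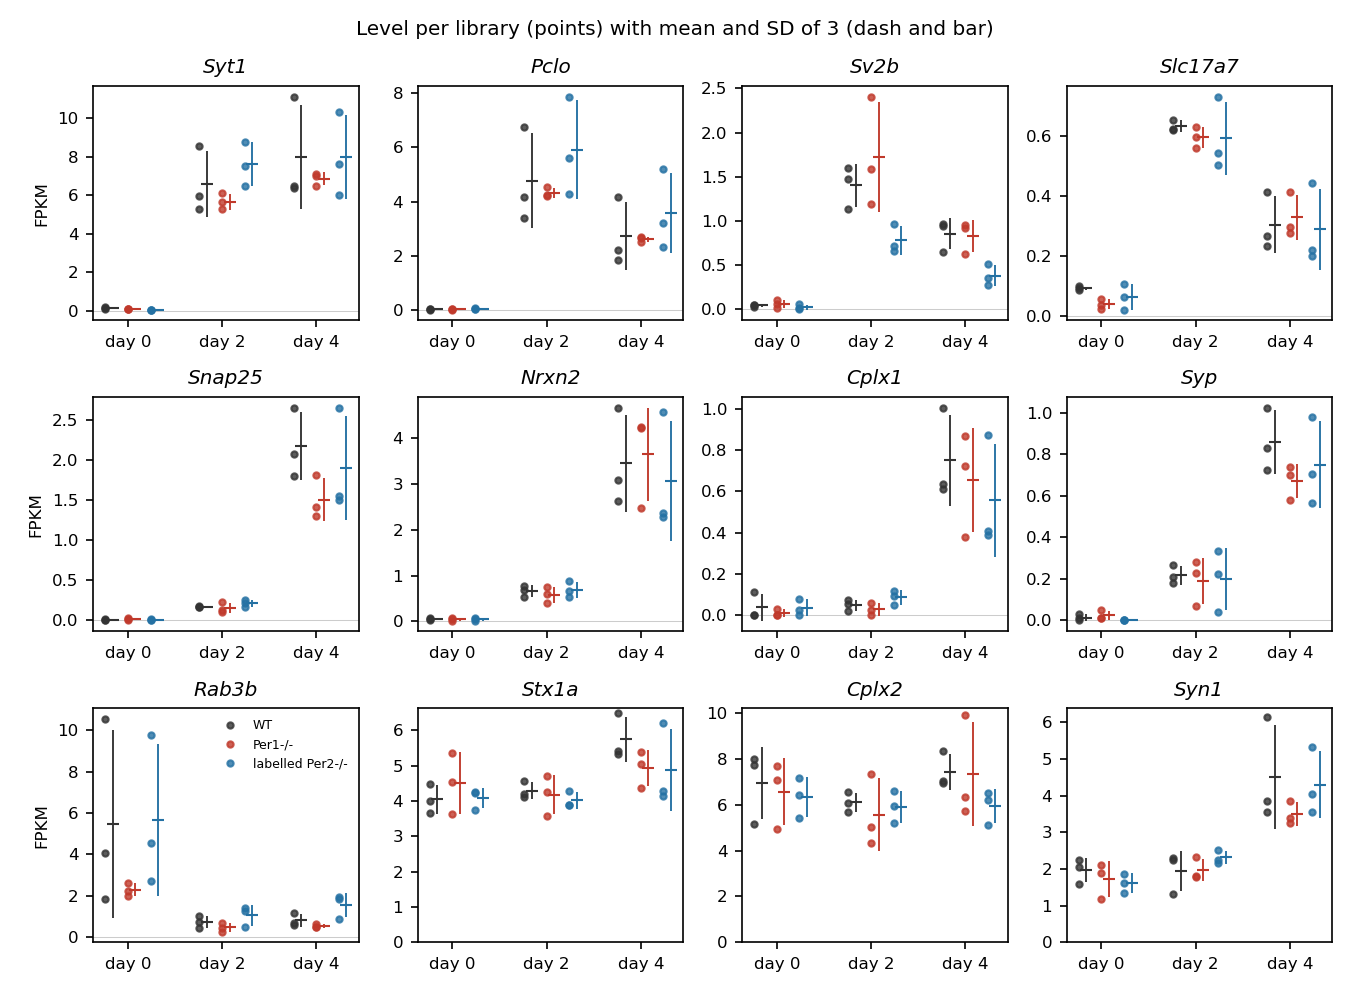
FPKM of 12 of the genes in each library (points) on days 0, 2, and 4 for WT, *Per1*-/-, and labelled *Per2*-/- cells, with the mean (dash) and SD (bar) of 3 replicates beside them. *Pclo*, *Sv2b*, and *Slc17a7* have their highest means on day 2, but their later falls did not pass the test in the planned fit or the fit without a minimum. *Snap25*, *Nrxn2*, *Cplx1*, and *Syp* are highest on day 4, *Rab3b* falls, and *Stx1a* and *Cplx2* show no called change.

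Of the 8 genes of the vesicle membrane and synapsins, all were higher on day 4 than on day 0 in all 3 genotypes. *Syp* (synaptophysin), the most abundant protein of the vesicle membrane, had 0 to 4 fragments per library on day 0 and 0 fragments in all 3 day 0 libraries labelled *Per2*-/-. Its mean reached 0.217 ± 0.0453 FPKM in WT on day 2 and 0.861 ± 0.153 on day 4 (SD, n = 3). Under the *Per2*-/- label, the day 4 mean of 0.751 FPKM was at least 70.0-fold higher than the level that 3 fragments over the 3 day 0 libraries would give. Between days 2 and 4 *Syp* rose by 1.60 ± 0.36 in WT, 1.49 ± 0.36 in *Per1*-/-, and 1.63 ± 0.36 under the *Per2*-/- label (adjusted p = 0.0260, 0.0393, and 0.0186). *Sv2b*, a vesicle glycoprotein that regulates release, behaved otherwise. The day 0 values of *Sv2b* were 0.0502, 0.0288, and 0.0476 FPKM in WT cells, 0.0123, 0.101, and 0.0566 in *Per1*-/- cells, and 0.0135, 0.0570, and 0 under the *Per2*-/- label. *Sv2b* stood on day 2 at 1.48, 1.13, and 1.60 FPKM in WT, 1.19, 1.58, and 2.41 in *Per1*-/-, and 0.711, 0.961, and 0.664 in the libraries labelled *Per2*-/-. For *Sv2b* on day 4, the replicates gave 0.651, 0.965, and 0.941 FPKM in WT, 0.626, 0.958, and 0.917 in *Per1*-/-, and 0.278, 0.512, and 0.353 under the *Per2*-/- label. Its earlier rise was 3.39 ± 0.30 in WT, 3.53 ± 0.30 in *Per1*-/-, and 2.84 ± 0.30 under the *Per2*-/- label (adjusted p = 7.98e-09, 5.78e-09, and 1.13e-07), and each day 4 library then lay below every day 2 library of its genotype. Day 4 lay below day 2 in this way for 4, 4, and 3 of the 37 genes in WT, *Per1*-/-, and labelled *Per2*-/- cells. Of the 14932 tested genes, 17.5%, 15.7%, and 15.6% did so. The later difference of *Sv2b*, -0.66 ± 0.30 in WT, -0.93 ± 0.30 in *Per1*-/-, and -0.88 ± 0.30 under the *Per2*-/- label (adjusted p = 0.222, 0.0866, and 0.0793), did not pass the test over all genes, and it was called after rescaling to TPM in *Per1*-/- cells (-1.05) and under the *Per2*-/- label (-0.96). With the replicate number as a block it was called in *Per1*-/- cells (-0.93, adjusted p = 0.0323) but not in WT cells (-0.66, adjusted p = 0.113). The block also gave a call under the *Per2*-/- label (-0.88, adjusted p = 0.032), where the numbers did not pair all libraries. Its relative *Sv2a*, the widely expressed form, reached 2.07 ± 0.169 FPKM in WT on day 4 from 0.549 ± 0.247 on day 0, and *Sv2c* 1.02 ± 0.447 from 0.134 ± 0.0649. *Syn1*, a synapsin that tethers vesicles to the cytoskeleton, did not pass the test from day 0 to day 2, with -0.04 ± 0.23 in WT, 0.22 ± 0.23 in *Per1*-/-, and 0.51 ± 0.23 under the *Per2*-/- label (adjusted p = 0.901, 0.429, and 0.0722). On day 4 it was higher than on day 0, with 1.13 ± 0.23 in WT, 1.02 ± 0.23 in *Per1*-/-, and 1.35 ± 0.23 under the *Per2*-/- label (adjusted p = 2.86e-04, 7.77e-04, and 4.46e-05). The later step of *Syn1* passed the test in WT cells and under the *Per2*-/- label, with 1.16 ± 0.23 in WT, 0.79 ± 0.23 in *Per1*-/-, and 0.85 ± 0.23 under the *Per2*-/- label (adjusted p = 0.00666, 0.0600, and 0.0342), but under that label it was not called without any of the 6 libraries in turn, with 0.69 to 0.97. *Syn2* rose from 0.0796 ± 0.0485 to 0.784 ± 0.241 FPKM in WT, and *Snap91*, an assembly factor of clathrin coats, from 0.683 ± 0.0561 to 1.79 ± 0.628. *Syn3* stayed at or below 0.226 FPKM, and 1733 of its 12282 annotated exon bases are shared with *Timp3* on the other strand, which held 33.5 to 85.8 FPKM. The libraries did not mark the strand, so fragments there cannot be assigned to one of these genes with certainty.

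Rab3 proteins are small GTPases of the vesicle that bind effectors at the active zone. *Rab3a*, the main neuronal form, rose from 4.66 ± 0.528 FPKM in WT on day 0 to 15.2 ± 2.25 on day 2 and was 16.4 ± 3.70 on day 4 (SD, n = 3). Its log2 fold change to day 2 was 1.67 ± 0.28 in WT, 1.66 ± 0.28 in *Per1*-/-, and 1.74 ± 0.28 under the *Per2*-/- label (adjusted p = 2.66e-05, 3.25e-05, and 1.99e-05). *Rab3c* started lower. On day 0, the level of *Rab3c* was 0.179, 0.136, and 0.128 FPKM in the WT libraries, 0.0901, 0.124, and 0.157 in the *Per1*-/- libraries, and 0.189, 0.370, and 0.227 in those labelled *Per2*-/-. WT libraries held 0.388, 0.543, and 0.888 FPKM of *Rab3c* on day 2, *Per1*-/- libraries 0.328, 0.712, and 0.726, and libraries labelled *Per2*-/- 0.415, 0.813, and 0.682. The day 4 values of *Rab3c* were 0.960, 1.11, and 1.63 FPKM in WT cells, 0.746, 1.18, and 0.987 in *Per1*-/- cells, and 0.894, 1.59, and 1.10 under the *Per2*-/- label. By day 2 it rose by 1.46 ± 0.33 in WT, 1.57 ± 0.33 in *Per1*-/-, and 1.02 ± 0.33 under the *Per2*-/- label (adjusted p = 7.09e-04, 3.56e-04, and 0.0123), and under the *Per2*-/- label this call was lost without day 0 replicate 1 (0.87) or day 2 replicate 2 (0.84). With a pseudocount of 1 FPKM it was lost in all 3 genotypes (0.47, 0.49, and 0.37). *Rab3b*, a form also found in endocrine and epithelial cells, was named here after its values were seen, as the member that fell. *Rab3b* stood on day 0 at 4.07, 10.6, and 1.81 FPKM in WT, 2.23, 2.63, and 2.00 in *Per1*-/-, and 9.80, 2.71, and 4.53 in the libraries labelled *Per2*-/-. For *Rab3b* on day 2, the replicates gave 1.03, 0.723, and 0.409 FPKM in WT, 0.256, 0.671, and 0.442 in *Per1*-/-, and 1.38, 0.466, and 1.27 under the *Per2*-/- label. On day 4, the level of *Rab3b* was 1.14, 0.650, and 0.594 FPKM in the WT libraries, 0.621, 0.469, and 0.486 in the *Per1*-/- libraries, and 1.86, 0.866, and 1.92 in those labelled *Per2*-/-. Replicates differed widely on day 0, where 1 WT library and 1 labelled *Per2*-/- held 10.6 and 9.80 FPKM, yet all day 2 libraries lay below all day 0 libraries of their genotype. The change to day 2 was -2.50 ± 0.53 in WT, -2.16 ± 0.53 in *Per1*-/-, and -2.27 ± 0.53 under the *Per2*-/- label (adjusted p = 3.85e-04, 0.00148, and 0.00105). *Rph3a* (Rabphilin), a Rab3 effector, had at most 5 fragments in any library and was not called.

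All 7 genes of the active zone and of priming were higher on day 4 than on day 0 in all 3 genotypes. *Pclo* (Piccolo), a giant scaffold of the active zone, rose early. WT libraries held 0.0515, 0.0215, and 0.0622 FPKM of *Pclo* on day 0, *Per1*-/- libraries 0.0161, 0.0433, and 0.0543, and libraries labelled *Per2*-/- 0.0430, 0.0638, and 0.0517. The day 2 values of *Pclo* were 4.16, 3.41, and 6.75 FPKM in WT cells, 4.24, 4.53, and 4.19 in *Per1*-/- cells, and 4.27, 7.87, and 5.61 under the *Per2*-/- label. *Pclo* stood on day 4 at 2.22, 1.83, and 4.18 FPKM in WT, 2.70, 2.51, and 2.64 in *Per1*-/-, and 2.34, 5.19, and 3.21 in the libraries labelled *Per2*-/-. Its log2 fold change to day 2 was 5.02 ± 0.29 in WT, 5.01 ± 0.29 in *Per1*-/-, and 5.26 ± 0.29 under the *Per2*-/- label (adjusted p = 2.78e-11, 3.93e-11, and 1.89e-11). Day 4 means were lower than day 2 means in each genotype, and the difference, -0.81 ± 0.29 in WT, -0.70 ± 0.29 in *Per1*-/-, and -0.74 ± 0.29 under the *Per2*-/- label (adjusted p = 0.124, 0.183, and 0.133), did not pass the test. Without WT day 4 replicate 3, or without labelled *Per2*-/- day 4 replicate 2, *Pclo* was called lower from day 2 to day 4 in that genotype, with -1.15 and -1.04. With the replicate number as a block it was called lower in WT (-0.81, adjusted p = 0.0125) and *Per1*-/- cells (-0.70, adjusted p = 0.0285). The block also gave a call under the *Per2*-/- label (-0.74, adjusted p = 0.0168), where the numbers did not pair all libraries. In *Per1*-/- cells *Pclo* was also called lower in a limma fit of only the groups compared (adjusted p = 0.0254). *Bsn* (Bassoon), the other giant scaffold, had a different course. For *Bsn* on day 0, the replicates gave 0.0725, 0.0879, and 0.0719 FPKM in WT, 0.0486, 0.0692, and 0.0722 in *Per1*-/-, and 0.171, 0.0732, and 0.178 under the *Per2*-/- label. On day 2, the level of *Bsn* was 0.707, 0.824, and 1.03 FPKM in the WT libraries, 0.740, 0.738, and 0.555 in the *Per1*-/- libraries, and 0.726, 1.13, and 0.711 in those labelled *Per2*-/-. WT libraries held 1.38, 1.39, and 2.27 FPKM of *Bsn* on day 4, *Per1*-/- libraries 1.96, 2.03, and 1.50, and libraries labelled *Per2*-/- 1.39, 2.54, and 1.62. Its earlier change was 2.42 ± 0.26 in WT, 2.25 ± 0.26 in *Per1*-/-, and 1.99 ± 0.26 under the *Per2*-/- label (adjusted p = 1.31e-07, 3.97e-07, and 2.09e-06). The later change, 0.87 ± 0.26 in WT, 1.31 ± 0.26 in *Per1*-/-, and 1.01 ± 0.26 under the *Per2*-/- label (adjusted p = 0.0594, 0.00764, and 0.0270), passed the test in *Per1*-/- cells and under the *Per2*-/- label but not in WT cells, and whether the genotypes differ was not tested. Under the *Per2*-/- label the call was lost without day 2 replicate 1 (0.92) or 3 (0.91), or day 4 replicate 2 (0.77) or 3 (1.08). *Rims2*, a scaffold that links calcium channels to vesicles, showed most of its increase by day 2. The day 0 values of *Rims2* were 0.0708, 0.140, and 0.134 FPKM in WT cells, 0.0448, 0.194, and 0.0587 in *Per1*-/- cells, and 0.180, 0.0664, and 0.140 under the *Per2*-/- label. *Rims2* stood on day 2 at 0.714, 1.07, and 1.54 FPKM in WT, 1.37, 1.04, and 0.949 in *Per1*-/-, and 0.671, 1.54, and 1.09 in the libraries labelled *Per2*-/-. For *Rims2* on day 4, the replicates gave 1.29, 1.62, and 2.39 FPKM in WT, 1.93, 1.56, and 1.39 in *Per1*-/-, and 1.25, 2.19, and 1.29 under the *Per2*-/- label. From day 0 to day 2 the log2 fold change of *Rims2* was 2.45 ± 0.34 in WT, 2.67 ± 0.34 in *Per1*-/-, and 2.36 ± 0.34 under the *Per2*-/- label (adjusted p = 3.41e-06, 1.24e-06, and 6.81e-06). *Unc13a* (Munc13-1), a factor that primes vesicles for fusion, was higher on day 4 than on day 0 in all 3 genotypes. On day 0, the level of *Unc13a* was 0.300, 0.195, and 0.253 FPKM in the WT libraries, 0.540, 0.129, and 0.268 in the *Per1*-/- libraries, and 0.216, 0.324, and 0.147 in those labelled *Per2*-/-. WT libraries held 0.480, 0.853, and 0.779 FPKM of *Unc13a* on day 2, *Per1*-/- libraries 0.499, 0.725, and 0.486, and libraries labelled *Per2*-/- 0.656, 1.06, and 0.708. The day 4 values of *Unc13a* were 1.20, 1.12, and 1.67 FPKM in WT cells, 1.32, 1.27, and 1.31 in *Per1*-/- cells, and 1.17, 1.50, and 1.27 under the *Per2*-/- label. From day 0 to day 4 it changed by 2.02 ± 0.31 in WT, 1.89 ± 0.31 in *Per1*-/-, and 2.13 ± 0.31 under the *Per2*-/- label (adjusted p = 8.78e-06, 2.10e-05, and 5.50e-06). In *Per1*-/- cells days 0 and 2 overlapped. Of its 12623 annotated exon bases, 495 are shared with *Colgalt1* on the other strand, which held 40.6 to 55.2 FPKM. Of the others, *Unc13b* (Munc13-2) reached 0.860 ± 0.140 FPKM in WT on day 2 and 0.795 ± 0.0972 on day 4, *Rims1* 0.612 ± 0.101 and 0.788 ± 0.0793, and *Rims3* 0.176 ± 0.0922 and 0.353 ± 0.124.

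Neurexins are presynaptic adhesion proteins that organise release sites. *Nrxn2* was among the members with a later rise. *Nrxn2* stood on day 0 at 0.0533, 0.0700, and 0.0289 FPKM in WT, 0.0561, 0.0799, and 0.0147 in *Per1*-/-, and 0.0452, 0.0154, and 0.0757 in the libraries labelled *Per2*-/-. For *Nrxn2* on day 2, the replicates gave 0.523, 0.683, and 0.771 FPKM in WT, 0.593, 0.744, and 0.393 in *Per1*-/-, and 0.655, 0.873, and 0.540 under the *Per2*-/- label. On day 4, the level of *Nrxn2* was 2.64, 3.08, and 4.65 FPKM in the WT libraries, 4.25, 4.23, and 2.47 in the *Per1*-/- libraries, and 2.37, 4.58, and 2.27 in those labelled *Per2*-/-. The 3 days did not overlap within any genotype. The log2 fold change was 2.33 ± 0.31 in WT, 2.16 ± 0.31 in *Per1*-/-, and 2.44 ± 0.31 under the *Per2*-/- label (adjusted p = 1.89e-06, 5.22e-06, and 1.25e-06) from day 0 to day 2. From day 2 to day 4 it was 2.20 ± 0.31 in WT, 2.46 ± 0.31 in *Per1*-/-, and 1.96 ± 0.31 under the *Per2*-/- label (adjusted p = 3.61e-04, 1.55e-04, and 0.00115). *Nrxn3* followed at a lower level, from 0.00395 ± 0.00384 FPKM in WT on day 0 to 0.128 ± 0.0422 on day 2 and 0.776 ± 0.216 on day 4 (SD, n = 3), with a later change of 1.93 ± 0.25 in WT, 2.08 ± 0.25 in *Per1*-/-, and 1.44 ± 0.25 under the *Per2*-/- label (adjusted p = 3.04e-04, 2.02e-04, and 0.00412).

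Transporters and enzymes decide which transmitter a neuron uses. *Slc17a7* (VGLUT1), which loads glutamate, was the 1 of these 5 genes that passed the test. WT libraries held 0.0877, 0.0986, and 0.0925 FPKM of *Slc17a7* on day 0, *Per1*-/- libraries 0.0575, 0.0241, and 0.0377, and libraries labelled *Per2*-/- 0.0211, 0.108, and 0.0646. The day 2 values of *Slc17a7* were 0.623, 0.655, and 0.620 FPKM in WT cells, 0.597, 0.629, and 0.560 in *Per1*-/- cells, and 0.731, 0.542, and 0.502 under the *Per2*-/- label. *Slc17a7* stood on day 4 at 0.268, 0.233, and 0.413 FPKM in WT, 0.415, 0.295, and 0.277 in *Per1*-/-, and 0.200, 0.221, and 0.445 in the libraries labelled *Per2*-/-. Its rise to day 2 was 1.93 ± 0.27 in WT, 2.32 ± 0.27 in *Per1*-/-, and 2.09 ± 0.27 under the *Per2*-/- label (adjusted p = 1.01e-05, 1.04e-06, and 4.38e-06), and the day 4 libraries lay below the day 2 libraries of their genotype, although the later change, -0.88 ± 0.27 in WT, -0.71 ± 0.27 in *Per1*-/-, and -0.87 ± 0.27 under the *Per2*-/- label (adjusted p = 0.118, 0.242, and 0.0953), did not pass the test. Day 4 also lay below day 2 without overlap for 17.5%, 15.7%, and 15.6% of the 14932 tested genes. *Slc17a6* (VGLUT2), the other main vesicular glutamate transporter, had low values. For *Slc17a6* on day 0, the replicates gave 0.107, 0.107, and 0.0554 FPKM in WT, 0.259, 0, and 0.125 in *Per1*-/-, and 0.0316, 0.206, and 0.108 under the *Per2*-/- label. On day 2, the level of *Slc17a6* was 0.0215, 0, and 0.0381 FPKM in the WT libraries, 0.0794, 0, and 0 in the *Per1*-/- libraries, and 0.00936, 0.00950, and 0.180 in those labelled *Per2*-/-. WT libraries held 0.0396, 0.0167, and 0.00826 FPKM of *Slc17a6* on day 4, *Per1*-/- libraries 0.0180, 0.0114, and 0, and libraries labelled *Per2*-/- 0.0332, 0.00883, and 0.0958. In WT cells the libraries of days 2 and 4 lay below those of day 0, the other groups overlapped, and no step was called. In WT cells 34.6% and 35.5% of the 14932 tested genes lay below day 0 in this way on days 2 and 4. *Gad2*, an enzyme that makes GABA, lay between 0.00822 and 0.188 FPKM. The day 0 values of *Gad2* were 0.0716, 0.00822, and 0.0255 FPKM in WT cells, 0.0264, 0.0994, and 0.0115 in *Per1*-/- cells, and 0.0773, 0.0993, and 0.0296 under the *Per2*-/- label. *Gad2* stood on day 2 at 0.0723, 0.0788, and 0.184 FPKM in WT, 0.139, 0.175, and 0.103 in *Per1*-/-, and 0.0860, 0.166, and 0.0956 in the libraries labelled *Per2*-/-. For *Gad2* on day 4, the replicates gave 0.0638, 0.0382, and 0.0683 FPKM in WT, 0.0579, 0.188, and 0.119 in *Per1*-/-, and 0.0382, 0.187, and 0.0640 under the *Per2*-/- label. Day 2 libraries stood above day 0 libraries in WT and *Per1*-/- cells but days 0 and 4 overlapped in each genotype, and no step was called. Day 2 stood above day 0 without overlap for 32.6% and 29.4% of the 14932 tested genes in WT and *Per1*-/- cells. Its isozyme *Gad1* had 0 to 3 fragments in any library and 0 in 20 of 27. Fragments of *Gad1* were 0, 0, and 0 in WT, 0, 1, and 0 in *Per1*-/-, and 0, 0, and 0 under the *Per2*-/- label on day 0, 0, 3, and 0, then 0, 0, and 0, then 0, 0, and 0 on day 2, and 0, 0, and 2, then 0, 3, and 1, then 0, 1, and 1 on day 4. *Slc32a1* (VGAT), which loads GABA and glycine, had 1, 0, and 3 fragments in WT, 0, 0, and 3 in *Per1*-/-, and 1, 0, and 0 under the *Per2*-/- label on day 0. On days 2 and 4 it had 0 fragments in all 18 libraries, which allows a level of up to 0.0182 FPKM (3 fragments) over 3 libraries of a group by counting error alone.

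The promoters of these genes were searched for the E-box CAGCTG, which reads the same on both strands and belongs to the motifs that basic helix-loop-helix factors bind. RefSeq promoters (GRCm38.p6) matched 30 of the 37 genes with 42 windows, and the 250 bases before each annotated start were searched. CAGCTG occurred in 8 of 42 windows (19.0%) and in 4271 of 32851 windows of all genes (13.0%). The 8 genes with it were *Cplx1*, *Cplx2*, *Rab3a*, *Rab3c*, *Rph3a*, *Stx1a*, *Sv2a*, and *Syt1*. Of these, 5 were higher on day 4 than on day 0 in all 3 genotypes, as were 16 of the 22 matched genes without it and 6 of the 7 unmatched ones. The windows printed here, with the motif in capitals, are those of *Syt1* (1 of its 2 windows) and *Rab3c*, which rose, *Stx1a*, which was not called although it holds the motif, and *Pclo*, which rose without it. The motif starts 31 bases before the RefSeq start used for *Syt1*, 108 before that for *Rab3c*, and 33 before that for *Stx1a*. The printed *Syt1* and *Rab3c* windows lie inside the genes as annotated for the expression values, which reach 109010982 and 110280996. The other *Syt1* window lacks the motif. A match to these letters is a description, not a site of binding.
Syt1, chr10:109009112-109009361, minus strand: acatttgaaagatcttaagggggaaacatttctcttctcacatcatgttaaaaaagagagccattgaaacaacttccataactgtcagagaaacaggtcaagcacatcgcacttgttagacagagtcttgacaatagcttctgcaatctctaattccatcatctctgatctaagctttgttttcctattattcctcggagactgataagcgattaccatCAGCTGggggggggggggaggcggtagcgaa
Rab3c, chr13:110280207-110280456, minus strand: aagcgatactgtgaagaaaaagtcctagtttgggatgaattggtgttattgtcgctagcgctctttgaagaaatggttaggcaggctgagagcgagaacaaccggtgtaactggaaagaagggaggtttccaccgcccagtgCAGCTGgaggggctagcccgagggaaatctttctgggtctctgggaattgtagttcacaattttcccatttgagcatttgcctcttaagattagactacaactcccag
Stx1a, chr5:135023232-135023481, plus strand: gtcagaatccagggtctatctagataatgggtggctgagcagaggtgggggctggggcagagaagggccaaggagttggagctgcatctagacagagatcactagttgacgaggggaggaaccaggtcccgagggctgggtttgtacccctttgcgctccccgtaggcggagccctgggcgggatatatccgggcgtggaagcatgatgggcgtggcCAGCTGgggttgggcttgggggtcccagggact
Pclo, chr5:14514668-14514917, plus strand: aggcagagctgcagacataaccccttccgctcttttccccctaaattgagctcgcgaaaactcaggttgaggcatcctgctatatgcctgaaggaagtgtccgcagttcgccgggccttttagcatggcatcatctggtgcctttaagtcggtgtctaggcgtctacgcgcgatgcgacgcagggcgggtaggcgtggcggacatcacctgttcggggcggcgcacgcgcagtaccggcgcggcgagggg

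Other genes of the same pathway were described with a list of 50 further presynaptic genes and a list of 30 relatives that serve exocytosis in most cells. Both lists were also chosen with earlier results of these data known, so their counts are descriptive. Of the 50, 29, 28, and 28 were called higher on day 4 than on day 0 in WT, *Per1*-/-, and labelled *Per2*-/- cells in the fit without a minimum, beside 12.7%, 13.0%, and 13.1% of all genes, and 4, 3, and 4 lower, beside 9.3%, 8.97%, and 8.36%, with median log2 fold changes of 0.962, 0.968, and 0.734. In WT cells *Syt9* rose by 4.15, *Cadps*, a factor of dense-core vesicle release, by 3.88, *Sh3gl2*, an endophilin of vesicle recycling, by 3.36, and *Cacna1b*, a presynaptic calcium channel, by 3.16, and *Sncg* fell by 2.20, all on the log2 scale (adjusted p = 4.49e-08, 5.05e-09, 1.01e-08, 7.41e-08, and 0.00319). *Cacna1a*, another calcium channel of the list, was called lower, with -0.854, -0.813, and -0.887 in WT, *Per1*-/-, and labelled *Per2*-/- cells. All 30 relatives reached the planned minimum. There 1 was called higher in each genotype, beside 22.9%, 22.6%, and 21.6%, and 6 lower, beside 20.9%, 20.4%, and 18.8%, so the lower share was that of all genes, with medians of -0.23, -0.129, and -0.181. In WT cells *Unc13d* rose by 1.20, whereas *Sytl2* fell by 1.52, *Stx3* by 1.30, and *Sypl*, the relative of *Syp* outside neurons, by 0.78. The sum of 6 neuroendocrine genes, including the granule proteins *Chga* and *Scg2*, came to 0.139 to 1.51 FPKM on day 0, 3.50 to 7.52 on day 2, and 21.9 to 45.8 on day 4, and their part in the rise of genes shared with dense-core vesicles was not tested.

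In 5 of the 6 groups of days 2 and 4, more than 10 of the 20 tested genes were highest in the same library. *Tubb3*, a neuronal tubulin chosen here after its values were seen, is given beside them. In the WT libraries of day 4, 17 of the 20 tested genes were highest in replicate 3, which also held the most *Tubb3*, 151 FPKM against 106 and 115. Among the day 4 libraries labelled *Per2*-/-, 17 of 20 were highest in replicate 2, with 156 FPKM of *Tubb3* against 87.9 and 76.3. On day 2, 14 of 20 genes were highest in WT replicate 3, with 127 FPKM of *Tubb3* against 92.9 and 95.1, and 17 of 20 in labelled *Per2*-/- replicate 2, with 101 FPKM against 91.7 and 92.5. *Per1*-/- cells of day 2 did not show this, with 9, 8, and 3 genes highest in replicates 1, 2, and 3 and 93.0, 120, and 95.3 FPKM of *Tubb3*, nor did the day 0 groups, with 5, 8, and 7 in WT, 3, 10, and 7 in *Per1*-/-, and 9, 7, and 4 under the *Per2*-/- label. In *Per1*-/- cells of day 4, 12 of 20 were highest in replicate 2, with 134 FPKM of *Tubb3* against 112 and 102. On day 4, *Map2*, another neuronal marker, was highest in the library of most members in WT and *Per1*-/- cells. On day 2 it was so under the *Per2*-/- label. In WT cells of day 2, however, *Map2* was highest in replicate 2, with 6.51 FPKM against 6.17 in replicate 3. Among day 4 libraries labelled *Per2*-/-, it was highest in replicate 1, with 10.71 FPKM against 10.35 in replicate 2. How many of all genes were highest in these libraries was not counted. *Pou3f2*, 1 of the transduced factors, was highest in the library of most members in WT and labelled *Per2*-/- cells on days 2 and 4. In WT cells of day 4 it held 207 FPKM in replicate 3 against 121 and 130. In *Per1*-/- cells of day 4, however, it was highest in replicate 1, with 177 FPKM against 154 in replicate 2. Whether the levels of these genes are linked was not tested.

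No member differed between genotypes past the test. In *Per1*-/- against WT cells, 0 of the 20 tested genes were called on days 0, 2, and 4, beside 0.0134%, 0.0067%, and 0.0268% of all genes tested. In limma 0 of 20 had an unadjusted p under 0.05 on any of these days, and with voom weights on the recovered fragments 0, 0, and 1 had, again with 0 calls, beside 0.0067%, 0.0067%, and 0.0201% of all genes. Of the 20, 14, 15, and 15 lay below 0 on days 0, 2, and 4. Median log2 fold changes were -0.101, -0.0627, and -0.0679, beside -0.00525, -0.0135, and -0.00994 for all genes. By mean FPKM, 13, 15, and 16 of the 20 were lower in *Per1*-/- than in WT cells, beside 48.7%, 54.4%, and 52.0% of all genes tested. Most members were highest in the same library in several groups, so these directions cannot be counted as independent. On day 4 the 95% confidence interval still held a log2 fold change of -0.58 for 13 of the 20 genes and of 0.58 for 9, and it lay inside these limits for 4. These intervals leave room for a difference of that size in most members. In the same comparison 14 macrophage markers had median log2 fold changes of 1.08 and 1.06 on days 2 and 4, and 0 were called. With DESeq2 on counts and the same thresholds, the paper reported many more genes raised in *Per1*-/- cells on these days. The 0 calls here therefore do not show that levels were equal. For the change from day 0 to day 4, no gene of the 20 passed the interaction test between *Per1*-/- and WT cells (0 calls, beside 0.0% of all genes, and 0 with an unadjusted p under 0.05 by limma and by voom). Its 95% intervals held -0.58 for 14 genes and 0.58 for 15 and lay inside these limits for 1. Against the libraries labelled *Per2*-/- the interaction gave the same counts of calls and of unadjusted p.

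*Per1*-/- cells were also set against the libraries labelled *Per2*-/-, where 0 of 20 genes were called on days 0, 2, and 4, beside 0.0201%, 0.0737%, and 0.556% of all genes, and 0, 1, and 2 had an unadjusted p under 0.05 by limma and 0, 2, and 1 by voom, which called 0 of them beside 0.0134%, 0.0469%, and 1.78% of all genes. The libraries labelled *Per2*-/- against WT gave 0 calls as well, beside 0.0067%, 0.0268%, and 0.0067%, with 1 gene on each day under 0.05 by limma and 0, 1, and 1 by voom, again with 0 calls, beside 0.0067%, 0.0134%, and 0.0067%. On days 2 and 4, every library labelled *Per2*-/- held less *Sv2b* than every library of the other genotypes. It was higher in *Per1*-/- than in labelled *Per2*-/- cells by 1.01 ± 0.30 on day 2 and 0.96 ± 0.30 on day 4 in log2 fold change, without overlap of libraries (limma, adjusted p = 0.247 and 0.149). Of the 20 tested genes, 2 and 2 did not overlap in this comparison on days 2 and 4. Between labelled *Per2*-/- and WT cells, 1 and 3 did not. The share over all genes is not given here, so this separation is not read as a difference. *Rab3b* was lower in *Per1*-/- than in labelled *Per2*-/- cells on day 4, with a log2 fold change of -1.33 ± 0.53 (limma, adjusted p = 0.263). *Syt1* differed by -0.60 ± 0.21 between the libraries labelled *Per2*-/- and WT on day 0 (limma, adjusted p = 1). These comparisons share libraries and are given side by side. Macrophage markers summed to 1274 to 2231 FPKM in *Per1*-/- cells on day 4, 607 to 1122 in WT, and 464 to 832 under the *Per2*-/- label, and their part in these values was not tested.

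**Figure D4:**
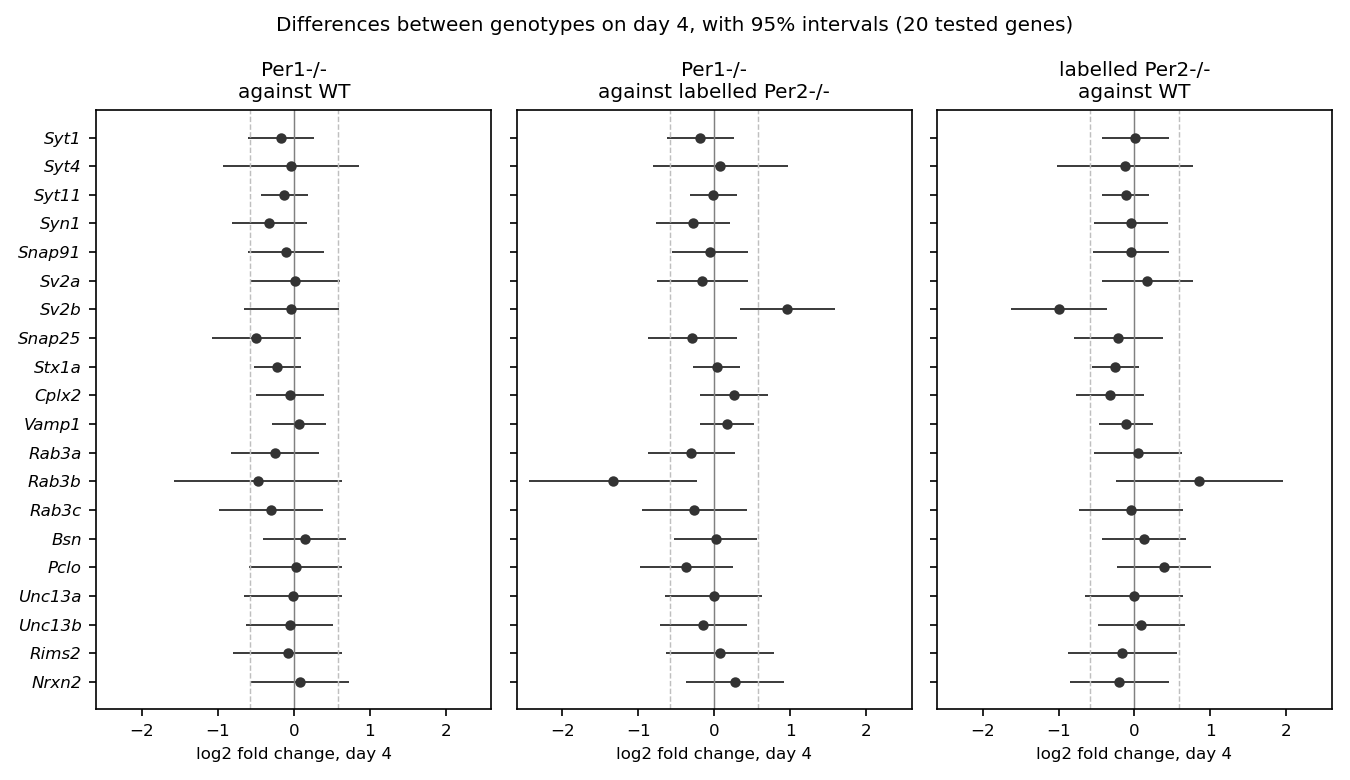
Log2 fold change between genotypes on day 4 for the 20 tested genes (points) with 95% confidence intervals (lines). Dashed lines mark -0.58 and 0.58. In *Per1*-/- against WT all 20 intervals cross 0, those of *Sv2b* and *Rab3b* lie above and below 0 in *Per1*-/- against labelled *Per2*-/- cells, that of *Sv2b* lies below 0 in labelled *Per2*-/- against WT, and no gene passed the adjusted test.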

How the data were processed

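Total mRNA of 27 libraries was sequenced as paired reads without strand information. Per the labels and methods, the authors aligned reads with HISAT2 2.0.5 to GRCm38, counted fragments per gene with featureCounts 1.5.0-p3, and deposited FPKM. FPKM values gave whole fragments for 100% of values (tolerance 0.01), 15815013 to 24264097 per library. The members and gene lists were chosen with earlier results of these data known. Here log2(FPKM + 0.1) of the 14932 genes whose mean reached 0.5 FPKM was fitted over 9 groups with limma 3.58.1 (R 4.3.3), with Benjamini-Hochberg adjustment over all genes, and genes were called if the adjusted p did not exceed 0.05 and the log2 fold change reached 0.58 in size. Scripts were tested on simulated data. Same-numbered libraries were taken as pairs where each correlation of their deviations from the group means was over 0.1: in WT (0.127 to 0.196) and *Per1*-/- cells (0.14 to 0.284) between days 2 and 4, and in *Per1*-/- cells between days 0 and 2 (0.15 to 0.294). The labels do not say what the numbers share. Across genotypes on 1 day, correlations ran from -0.256 to 0.192. The genes named with full values were the 10 tested members with the largest mean change from day 0 to day 4 in absolute value, and those added later are marked as such or stand for their role. In the planned fit, p-values measure the spread between biological replicates within groups, pooled over the 9 groups of 3 and adjusted with information from other genes. With 3 against 3, an exact permutation test cannot go below 0.1. Alternatives were other pseudocounts, filters, scalings and fits, a replicate block, and leaving out each library. Some genes are not reported here. Of the 37 genes, 15 share exon bases with another gene, so their values are less certain.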

Additional observations from a re-analysis of the deposited data

How the results depend on the processing

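The counts of members called changed with the genes tested, the pseudocount, the weights, and the replicate block, and 0 of 114 called member changes reversed under any alternative run. From day 0 to day 2, the 15, 15, and 16 members called higher in WT, *Per1*-/-, and labelled *Per2*-/- cells became 8, 8, and 9 with a mean of at least 1 FPKM, where fewer members were tested. With no filter WT gave 23, with voom and at least 27 fragments (chosen after seeing the data) 25, and with a pseudocount of 1 each genotype gave 10. From day 2 to day 4, the 3, 4, and 4 called higher became 6 in WT with no filter, 8 with voom, and 11, 9, and 8 with voom and at least 27 fragments, and 2 in *Per1*-/- and 2 under the *Per2*-/- label with a mean of at least 1 FPKM. Lower calls from day 2 to day 4, 0 as reported, were 1 in each genotype with voom and at least 27 fragments, 1 in *Per1*-/- with voom and in a fit of only the groups compared, and 1 in *Per1*-/- and 1 under the *Per2*-/- label after rescaling to TPM. The cause was not tested. Under TPM the median of all genes from day 0 to day 2 was 0.409 in WT, against -0.00989 as reported, and the share of higher calls went from 51.3% to 81.6%. Without a library in turn, higher calls from day 0 to day 2 ranged from 14 to 15, 14 to 15, and 14 to 16, those from day 2 to day 4 were 3, 3, and 2 to 3, and lower calls from day 2 to day 4 were 0 to 1 in WT, 0 in *Per1*-/-, and 0 to 1 under the *Per2*-/- label. Of the 114 changes, 26 lost their call under at least 1 other setting and 9 without some library. Beside those of *Syn1*, *Rab3c*, and *Bsn* given above, these were *Sv2a* in WT from day 0 to day 2 (0.48 without day 0 replicate 2) and in *Per1*-/- from day 2 to day 4 (0.99 to 1.13 without any of 6 libraries), *Unc13a* in *Per1*-/- from day 0 to day 2 (0.45 without day 0 replicate 2, 0.79 without day 0 replicate 3, 0.65 without day 2 replicate 2), *Unc13b* in WT from day 0 to day 4 (0.65 without day 0 replicate 3) and under the *Per2*-/- label from day 0 to day 2 (0.59 and 0.73 without day 0 replicates 2 and 3, 0.68 without day 2 replicate 2), and *Rab3b* under the *Per2*-/- label on day 4 against day 0 (-1.21 without day 0 replicate 1 and -1.34 without day 4 replicate 2). With the replicate block, calls from day 2 to day 4 became 6 higher and 1 lower in WT, 7 higher and 2 lower in *Per1*-/-, and 6 higher and 2 lower under the *Per2*-/- label, where the numbers did not pair all libraries, and its counts for the other comparisons did not change. Of 27 libraries, 25 correlated best with their own number among the other days of their genotype, a hint from the data only. Genotype comparisons gave 0 calls among members under every alternative run. Genes with few fragments, such as *Gad1* and *Slc32a1*, are limited by depth.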
